A study of Mus musculus with 10 samples.

Results

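Methylation of cytosine in CpG dinucleotides is written, copied and removed by a small set of enzymes, and the transcripts of 10 of them were examined here in E14, a line of mouse embryonic stem cells. The genes are the maintenance methyltransferase Dnmt1, the de novo methyltransferases Dnmt3a and Dnmt3b, their catalytically inactive cofactor Dnmt3l, the hemimethylated DNA binding proteins Uhrf1 and Uhrf2, the oxygenases Tet1, Tet2 and Tet3, and the thymine DNA glycosylase Tdg. They were chosen by name for their role, with no threshold on a value, though earlier results of these data were known. Each symbol matched 1 Ensembl gene among the 55487 genes of the tables. The series has 10 samples in 6 groups. Of these, 3 are RNA-seq replicates and 7 are R-loop maps, which were not analysed here. The RNA-seq samples form a single group, and the labels name no transgene, deletion or treatment contrast in it. Per the labels, the cells grew in medium with 15% fetal bovine serum, LIF, 3 µM of a GSK inhibitor and 1 µM of a MEK1/2 inhibitor, so every level below belongs to that mixture of serum and inhibitors.

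As background, DNMT1 copies methylation onto the new strand after replication, and UHRF1 brings it to hemimethylated sites. DNMT3A and DNMT3B methylate sites that carried no mark, and DNMT3L stimulates them in germ cells and early embryonic cells. TET proteins oxidise 5-methylcytosine, and TDG excises the further oxidised bases so that base excision repair can restore cytosine. Mouse stem cells held with LIF and these inhibitor classes are known for low genome-wide methylation compared with cells grown in serum alone. RNA levels measure neither protein nor enzyme activity, and no methylation was measured in the tables used here.

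The labelled cell type was checked first. All 8 stem cell markers listed, Pou5f1 and Nanog among them, had a mean of at least 1 TPM, a transcript abundance per unit of length scaled to the same total in each library. Of 6 fibroblast genes, 1 reached that level (Thy1, 2.50 ± 1.15 TPM, SD, n = 3). Pdgfrb was just under it, at a mean of 0.98 TPM from 203, 96 and 55 counts in replicates 1, 2 and 3. Col3a1 and Twist2 had 0 counts in every replicate, and the summed level of the list was 1.79 to 4.57 TPM. None of the 4 extraembryonic endoderm, 3 mesoderm or 3 neural genes reached a mean of 1 TPM. The neural gene Sox1 came nearest, at a mean of 0.73 TPM from 122, 67 and 44 counts. A mean under 1 TPM is therefore not absence. Depth was 11420425 estimated counts in replicate 1, 6467405 in replicate 2 and 5787357 in replicate 3.

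The annotated promoters of the members differ widely in CpG density, which is shown here because CpG is the substrate of the encoded enzymes. Which of the annotated starts is used in these cells was not measured. RefSeq (GRCm38.p6) gave 17 promoter windows for the 10 genes, each read here as the 250 bases before an annotated start. A window with more CpG than the median of 6 over all 32817 such windows was found in 13 of the 17. Tet2 had the most, 51 CpG, more than 99.9% of all windows. The 3 Dnmt3l windows had 5, 4 and 3 CpG. Dnmt1 held a wide range, with 2 CpG at its most upstream start and 26 at its most downstream one. Below are windows without an annotated exon, with CpG in capitals, for the richest member, for Dnmt3b and for the Dnmt3l window at the start of its 1676 nt transcript.
Tet2, chr3:133544391-133544640, minus strand: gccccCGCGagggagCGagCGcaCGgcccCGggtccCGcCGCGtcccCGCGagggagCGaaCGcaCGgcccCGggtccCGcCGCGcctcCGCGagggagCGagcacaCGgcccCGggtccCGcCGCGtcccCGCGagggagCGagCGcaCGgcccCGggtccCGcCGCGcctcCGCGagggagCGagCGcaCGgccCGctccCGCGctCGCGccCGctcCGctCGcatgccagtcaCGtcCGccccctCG
Dnmt3b, chr2:153649199-153649448, plus strand: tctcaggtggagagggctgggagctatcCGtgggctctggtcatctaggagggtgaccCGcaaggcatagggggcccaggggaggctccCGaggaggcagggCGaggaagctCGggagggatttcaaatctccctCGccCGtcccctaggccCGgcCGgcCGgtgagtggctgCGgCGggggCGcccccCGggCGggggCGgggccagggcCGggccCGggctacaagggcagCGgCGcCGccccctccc
Dnmt3l, chr10:78049592-78049841, plus strand: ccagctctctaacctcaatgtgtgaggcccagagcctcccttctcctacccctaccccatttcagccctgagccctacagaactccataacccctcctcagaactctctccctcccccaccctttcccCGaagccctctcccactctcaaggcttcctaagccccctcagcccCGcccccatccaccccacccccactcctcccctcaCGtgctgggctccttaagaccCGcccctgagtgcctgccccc

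Simple motif searches on both strands gave few matches. The letters TTTNNCGC, a core of the site bound by the cell cycle factors of the E2F family, occurred in 3 of the 17 windows and in 4.28% of all windows. These were both Uhrf1 windows and the most downstream Dnmt1 window, so no other member had a match. The letters hold a CpG, and the share over all windows is not matched for CpG content, so no enrichment is read from it. The octamer ATGCAAAT occurred in 0 of 17 and in 1.60% of all windows, and TATAAA in 0 of 17 and in 12.4% of all windows. The windows of Dnmt3a at its upstream starts overlap, so the 17 are not all independent. The Uhrf1 window without an annotated exon is given with its match TTTCGCGC in capitals, which begins 185 bases before the start.
Uhrf1, chr17:56304063-56304312, plus strand: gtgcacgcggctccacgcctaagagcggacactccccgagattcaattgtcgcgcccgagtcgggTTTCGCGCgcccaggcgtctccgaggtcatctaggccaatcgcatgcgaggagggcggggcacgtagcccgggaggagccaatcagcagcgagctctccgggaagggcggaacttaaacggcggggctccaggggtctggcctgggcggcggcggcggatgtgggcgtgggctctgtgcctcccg

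All 10 genes were expressed, with means from 1.09 to 47.2 TPM. A mean of at least 1 TPM was reached by 19.8% of all genes and by 44.1% of protein-coding genes. The median level of the 10 was 3.43 in log2(TPM + 1), with an SD of 0.26 over the 3 replicates. The median over the 9683 protein-coding genes with a mean of at least 1 TPM was 2.72 on the same scale. The members spanned nearly the whole range of those genes, from the 94.4 percentile for Tet1 to the 1.93 percentile for Tet3. Every member had fewer TPM in replicate 2 than in replicate 1 and fewer in replicate 3 than in replicate 1, as did 89.1% and 93.8% of expressed protein-coding genes. A fall in TPM from replicate 1 is therefore shared with most genes of these libraries. Genes of effective length under 100 nt took 60.3%, 65.8% and 63.9% of TPM in replicates 1, 2 and 3, and their part in the shift was not tested.

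**Figure D1:**
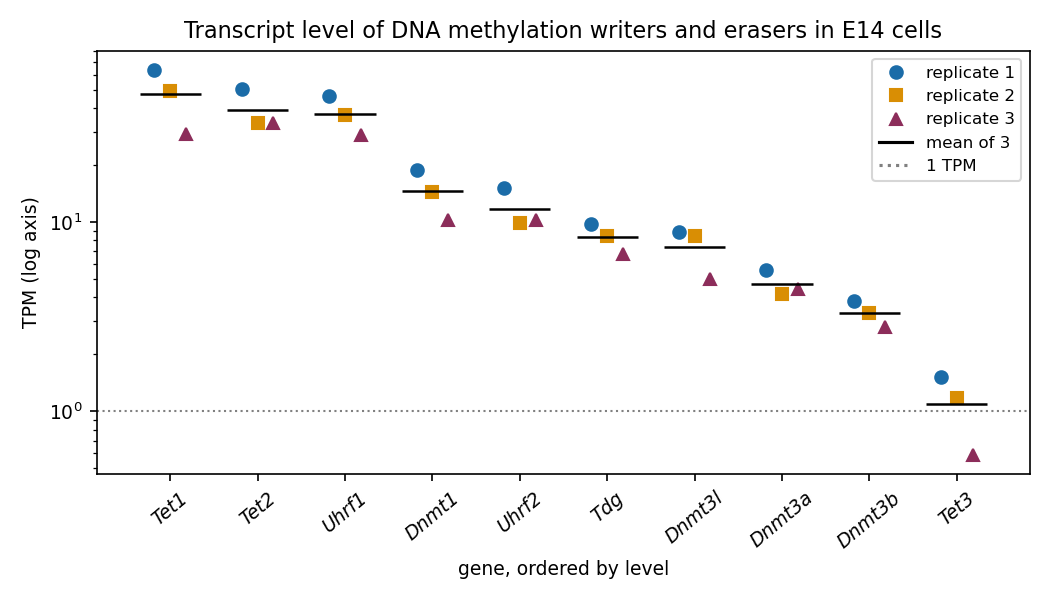
TPM of the 10 genes (log axis) in each of the 3 RNA-seq replicates, with the mean as a black bar and 1 TPM dotted. Tet1, Tet2 and Uhrf1 lie together at the top between 28.6 and 63.5 TPM, and Tet3 lies lowest, from 0.59 to 1.51 TPM.

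Among the enzymes that place methylation, the maintenance enzyme was the most abundant. Dnmt1 (ENSMUSG00000004099, chromosome 9, 20907209 to 20959888, minus strand, GRCm38) had 18.9, 14.4 and 10.2 TPM in replicates 1, 2 and 3, a mean of 14.5 ± 4.36 (SD, n = 3). Dnmt3a (ENSMUSG00000020661, chromosome 12, 3806007 to 3914443, plus strand) had 5.58, 4.18 and 4.42 TPM, a mean of 4.73 ± 0.75 (SD, n = 3). Dnmt3b (ENSMUSG00000027478, chromosome 2, 153649450 to 153687730, plus strand) had 3.8, 3.32 and 2.78 TPM. No replicate of Dnmt1 was as low as any replicate of Dnmt3a or Dnmt3b, and the replicates of Dnmt3a and Dnmt3b did not overlap either. Of the TPM summed over these 3 enzymes, Dnmt1 held 63.8% ± 4.44, Dnmt3a 21.4% ± 3.46 and Dnmt3b 14.9% ± 1.30 (SD, n = 3).

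Within replicates, Dnmt1 exceeded Dnmt3a by a log2 ratio of TPM of 1.76, 1.78 and 1.21, a mean of 1.58 ± 0.33 (SD, n = 3) or 3.00-fold. Dnmt3a exceeded Dnmt3b by 0.55, 0.33 and 0.67, a mean of 0.52 ± 0.17 (SD, n = 3). The direction held in 3 of 3 replicates for both ratios. That of Dnmt3a to Dnmt3b depended on the length used, since counts divided by the longest annotated transcript gave -0.28. The same division raised the ratio of Dnmt1 to Dnmt3a to 2.74. The smallest two-sided p-value that an exact sign-flip permutation test over 3 replicates can give is 0.25. Of the 8 ratios examined, 7 had that value (Benjamini-Hochberg adjusted p = 0.286) and none can pass a threshold of 0.05, so the ratios below are given with their spread alone.

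Dnmt3l (ENSMUSG00000000730, chromosome 10, 78041947 to 78063622, plus strand), the cofactor without catalytic activity, had 8.80, 8.48 and 4.97 TPM, a mean of 7.42 ± 2.13 (SD, n = 3). Its lowest replicate lay below the highest replicate of Dnmt3a, so the 2 ranges overlapped, although Dnmt3l was the higher in each replicate. The log2 ratio of Dnmt3l to Dnmt3a was 0.66, 1.021 and 0.17 in replicates 1, 2 and 3, a mean of 0.62 ± 0.43 (SD, n = 3). In counts without length scaling the ratio turned to -0.75, with a weighted transcript length of 1511 to 1638 nt for Dnmt3l and 3173 to 4565 nt for Dnmt3a. Counts divided by the longest annotated transcript gave 1.66. Dnmt3l overlaps Aire, a gene on the opposite strand with 153, 61 and 52 counts. Whether the counting used strand is not given in the sources used here, so reads of the overlapping stretch cannot be told apart. The rodent copy of Dnmt3b, Dnmt3c, known from germ cells, had 0 counts in every replicate, which allows up to 3 counts, or 0.263 to 0.518 CPM, the count scaled to the library total.

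Transcripts of Uhrf1 were more abundant than those of its paralog Uhrf2. Uhrf1 (ENSMUSG00000001228, chromosome 17, 56303321 to 56323486, plus strand) had 46.4, 36.8 and 28.6 TPM, a mean of 37.3 ± 8.87 (SD, n = 3). Uhrf2 (ENSMUSG00000024817, chromosome 19, 30030513 to 30093722, plus strand), a paralog that does not replace UHRF1 in maintenance, had 15.1, 9.91 and 10.2 TPM. The 2 ranges were apart, and the log2 ratio was 1.67 ± 0.21 (SD, n = 3), or 3.18-fold. It was 2.29 in counts without length scaling and 2.27 with counts divided by the longest annotated transcript. Uhrf1 also exceeded Dnmt1, the enzyme it recruits, by 1.29, 1.36 and 1.49 in log2 ratio. That ratio, 1.38 ± 0.10 (SD, n = 3), had the second smallest spread of the 8, and was 0.66 in counts without length scaling. Uhrf2 and Dnmt1 had overlapping ranges and a log2 ratio of Dnmt1 to Uhrf2 of 0.29 ± 0.27 (SD, n = 3), although Dnmt1 was the higher in 3 of 3 replicates.

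The oxygenases were unequal, with Tet1 and Tet2 high and Tet3 near the limit of the expressed genes. Tet1 (ENSMUSG00000047146, chromosome 10, 62804570 to 62908996, minus strand) had 63.5, 49.0 and 29.1 TPM, a mean of 47.2 ± 17.3 (SD, n = 3). Tet2 (ENSMUSG00000040943, chromosome 3, 133463679 to 133545139, minus strand) had 50.1, 33.5 and 33.4 TPM, a mean of 39.0 ± 9.63 (SD, n = 3). Tet1 was the higher in replicates 1 and 2 and Tet2 in replicate 3, so the log2 ratio of 0.23 ± 0.38 (SD, n = 3) was smaller than its own spread. Without replicate 3 the ratio was 0.44. Uhrf1 lay in the same range as both, and the order of these 3 genes differed in every replicate.

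Tet3 (ENSMUSG00000034832, chromosome 6, 83362373 to 83459084, minus strand), the oxygenase known for its role in the zygote and in neurons, had 1.51, 1.17 and 0.59 TPM, a mean of 1.09 ± 0.47 (SD, n = 3). In TPM it was the lowest member in every replicate. In CPM, which leaves length out, it was the lowest in replicates 1 and 3 but above Dnmt3b in replicate 2 (30.5 against 28.3). The Tet3 values rest on 299, 197 and 74 estimated counts, far above the floor of 3 counts. Tet2 exceeded Tet3 by a log2 ratio of 5.24 ± 0.52 (SD, n = 3), or 37.8-fold. The log2 ratio was 4.26 with a pseudocount of 1 and 4.43 in counts without length scaling. For long protein-coding transcripts alone the order is not fixed, since the gene lengths allow 0 TPM of Tet2 in every replicate. Of the TPM summed over the 3 oxygenases, Tet3 held 1.22% ± 0.25, Tet1 53.3% ± 6.40 and Tet2 45.5% ± 6.64 (SD, n = 3).

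Summed over all their transcripts, the oxygenases had more TPM than the active methyltransferases. Summed TPM of Dnmt1, Dnmt3a and Dnmt3b was 28.3, 21.9 and 17.4, and that of Tet1, Tet2 and Tet3 was 115, 83.7 and 63.1 in replicates 1, 2 and 3. The log2 ratio of the first sum to the second was -2.03, -1.93 and -1.86, a mean of -1.94 ± 0.08 (SD, n = 3), so the oxygenase sum was 3.83-fold larger. This ratio had the smallest spread of the 8 and was the only one of sums over several genes. Tet1 alone had a coefficient of variation of 36.6% in TPM. That measure includes the fall in TPM shared by most genes, which a ratio within replicates leaves out, so the spreads are not comparable. With counts divided by the longest annotated transcript the ratio was -1.26. The direction did not hold for long protein-coding transcripts alone at every value that the gene lengths allow, a bound described with the transcripts below. At the lowest oxygenase and highest methyltransferase values so allowed, the sums were 26.9 against 25.4 TPM in replicate 1. They were 19.7 against 20.3 in replicate 2 and 9.04 against 14.3 in replicate 3, a mean log2 ratio of 0.21. Long Tet2 transcripts are at 0 TPM in every replicate at that end, the lowest value their bound allows.

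Tdg (ENSMUSG00000034674, chromosome 10, 82629828 to 82650799, plus strand), the glycosylase that acts after the oxygenases, had 9.78, 8.48 and 6.78 TPM, a mean of 8.35 ± 1.504 (SD, n = 3). Its ranges were apart from those of Uhrf2 above it, while it overlapped Dnmt3l below it. In replicate 2 both Tdg and Dnmt3l had 8.48 TPM. The estimated counts of Tdg, 657.3, 375.6 and 307.8, are not whole, so reads were shared with other genes. Its processed pseudogene Tdg-ps was given 123.6, 106.6 and 60.6 counts. The division of reads between the 2 is uncertain. Uhrf1 also had counts that are not whole in replicates 2 and 3, 2082.69 and 1702.76. Gm48353, which lies within Tet1 on the same strand, had 41, 19 and 19 counts.

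TPM divides by a length that depends on which transcripts the estimator favoured, and several members have many short or intron-retaining transcripts. The gene-level length in the tables is a mean over transcripts weighted by estimated abundance. It averaged 43.4% of the longest transcript for Tet1, 48.5% for Tet2, 71.1% for Tet3 and 87.1% for Dnmt1. For Tet1 it was 6829, 6466 and 5413 nt in replicates 1, 2 and 3, while its 2 full-length transcripts have 13986 and 14369 nt and the other 8 have at most 1505 nt. Such a gap bounds the share of full-length molecules, at 41.4 to 47.5% of Tet1 transcripts in replicate 1, 38.6 to 44.8% in replicate 2 and 30.4 to 37.1% in replicate 3. The replicate 3 interval does not overlap the other two. The bounds assume the vM21 transcript lengths, and they describe the estimator's division of reads, not transcripts seen whole.

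The same bounds were computed for every member, with long transcripts defined as protein-coding transcripts of at least 50% of the longest length. Long transcripts made up 82.6 to 97.7% of Dnmt1 and 81.5 to 95.7% of Uhrf1 over the bounds of all replicates. They made up 59.2 to 82.1% of Dnmt3b and 54.7 to 86.5% of Tdg. For Dnmt3l the lower bounds were 78.0, 82.6 and 87.0%. For Tet3 they were 42.6, 69.2 and 32.2%, and the upper bounds of both genes were 100%. For Tet2, which has 5 intron-retaining transcripts of up to 6362 nt, the long transcripts of 9021 and 9179 nt could make up at most 43.6, 49.3 and 47.7%. For Uhrf2, with 8 intron-retaining transcripts beside a single coding one, the upper bounds were 52.0, 58.5 and 52.7%. The lower bounds of Tet2 and Uhrf2 were 0% in every replicate. Long transcripts of Tet1, Tet2 and Uhrf2 thus made up at most 58.5% of molecules in any replicate, against at least 81.5% for Dnmt1 and Uhrf1. Long Tet1 transcripts had 26.3 to 30.2 TPM in replicate 1, 18.9 to 21.9 in replicate 2 and 8.85 to 10.8 in replicate 3, against at most 21.9, 16.5 and 15.9 for long Tet2 transcripts. At the lowest Tet1 and the highest Tet2 values that these bounds allow, the mean log2 ratio of Tet1 to Tet2 turned to -0.13.

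Dnmt3a had the least stable weighted length. It was 3890, 4565 and 3173 nt in replicates 1, 2 and 3, a range of 35.9% of its mean. Dnmt3a has 18 annotated transcripts, from 369 to 9685 nt. Among them is a 5424 nt transcript that starts at an internal promoter (chr12:3891494-3891743 before the start), the form known as Dnmt3a2 in stem cells. Its 2 longer coding transcripts have 8737 and 9685 nt. The weighted length lies below all 3, and long transcripts made up at most 69.7, 83.0 and 55.5% of the molecules. Their lower bounds were 0, 9.72 and 0%. The bounds do not separate Dnmt3a2 from the others. Replicate 3 of Dnmt3a had fewer CPM than replicate 2 (44.1 against 54.3) and yet more TPM (4.42 against 4.18), beside its shorter weighted length.

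**Figure D2:**
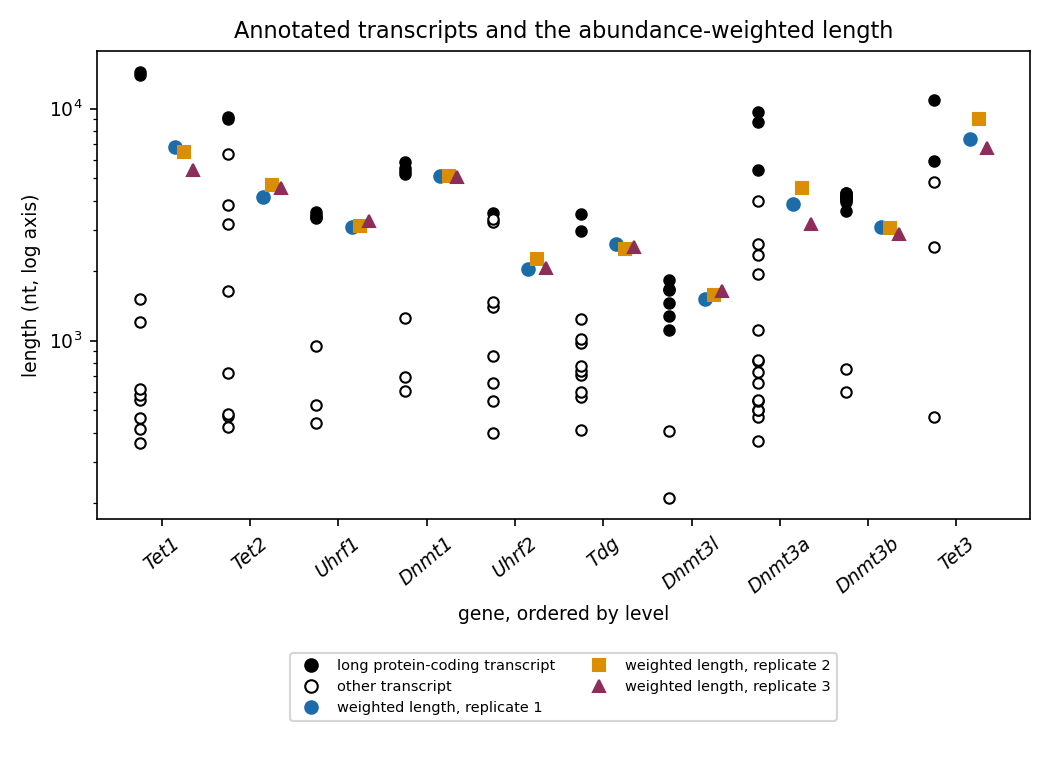
Length in nt (log axis) of every annotated transcript of the 10 genes (circles, filled for long protein-coding transcripts) beside the abundance-weighted gene length in each replicate (coloured symbols). For Tet1 the weighted length of 5413 to 6829 nt falls in the empty range between its 2 full-length transcripts and the others, and for Dnmt1 it stays near the full-length group at 5065 to 5140 nt.

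Variation between replicates was tested in the fit across all genes, which asks whether the counts of a gene vary more than those of genes of like abundance. The goodness-of-fit test of edgeR was used, and genes with an adjusted p under 0.05 (Benjamini-Hochberg) were called. All 10 members passed the low-count filter. None of the 10 was called, beside 1.84% of the 12577 genes tested. In simulated data the test recovered 5 of 50 genes changed 2-fold in 1 replicate, so a change of that size can go uncalled. At an unadjusted p under 0.05 there was 1 member, Tet3, among 875 genes. With DESeq2 size factors 0 members and the same share of genes were called. Members called were also 0 without the filter (1.19% of genes called), with a length correction (1.42%), and without replicate 1, 2 or 3 (0.709%, 0.474% and 0.683%). Tet3 had 25.1, 29.7 and 13.9 CPM after TMM normalization in replicates 1, 2 and 3. Its adjusted p in edgeR was 0.316, from an unadjusted 0.0121. That unadjusted p was 0.00798 without replicate 1, 0.061 without replicate 2 and 0.278 without replicate 3. Tet1 had 966, 886 and 550 CPM after TMM normalization. Its adjusted p in edgeR was 0.862, from an unadjusted 0.0729. For both genes replicate 3 was the lowest, while for Tet2 it was the highest, at 524 against 460 and 433. The other 8 members had unadjusted p-values of at least 0.485.

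Tet1 and Tet3 have long transcripts, as Tet2 has, so the deviations were also taken with a length trend removed. In log2 CPM, Tet1 and Tet3 deviated from their means by -0.50 and -0.64 in replicate 3. The 5th percentile of all 12577 genes was -0.50 in that replicate. With a smooth length trend removed these deviations were -0.31 and -0.41, inside the 5th percentile of -0.46. The edgeR goodness-of-fit p-values rose to 0.223 for Tet1 and 0.0651 for Tet3. For Tet2 the replicate 3 deviation grew from 0.155 to 0.29, and the p-value of the same test fell from 0.734 to 0.234. Whether length accounts for any of these deviations was not tested. The share of the members in all counts was 0.230%, 0.215% and 0.167% in replicates 1, 2 and 3 (Wilson 95% intervals 0.227 to 0.232, 0.212 to 0.219 and 0.164 to 0.170, counting error only). The share was lowest in replicate 3, but none of the 3 intervals overlapped another, and they hold no variation between libraries. Tet1 alone had 1009, 909 and 504 CPM without TMM normalization in replicates 1, 2 and 3, so the share does not describe the members as a group.

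**Figure D3:**
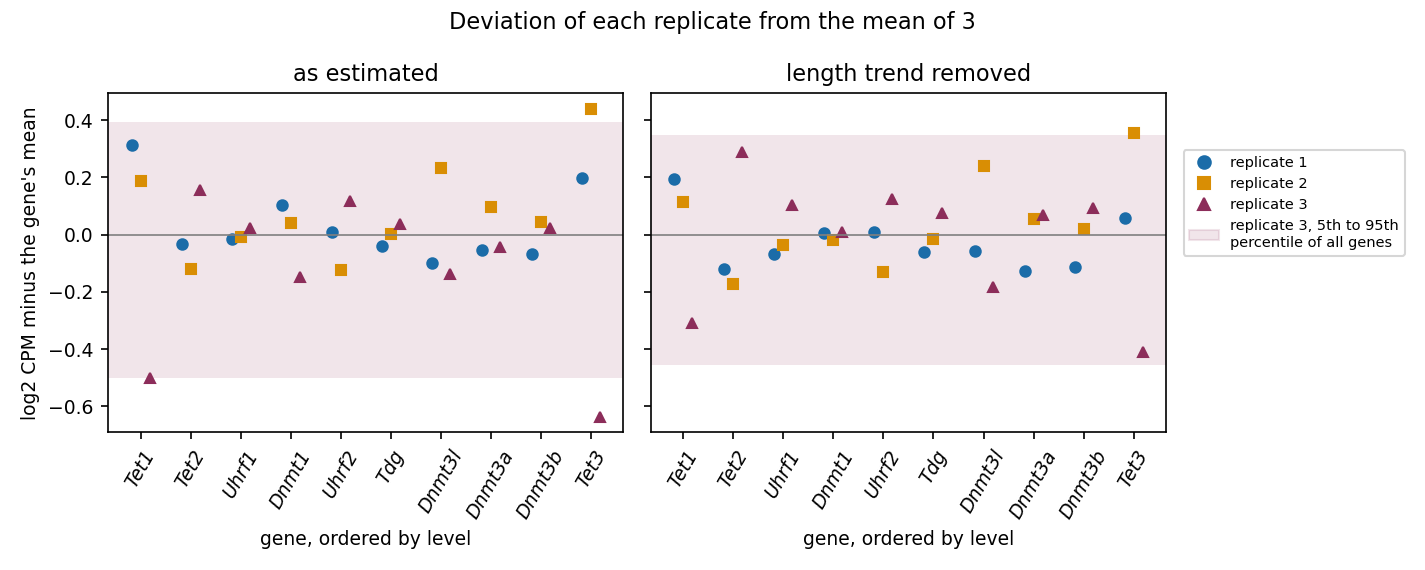
Deviation of each replicate's log2 CPM from the gene's mean of 3, before (left) and after (right) a smooth trend with gene length was removed; the band spans the 5th to 95th percentile of all 12577 genes in replicate 3. Tet1 and Tet3 are lowest in replicate 3, at -0.50 and -0.64 on the left and -0.31 and -0.41 on the right. Tet2 in replicate 3 is at 0.155 on the left and 0.29 on the right.

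The wider pathway was read from 6 lists of 54 genes, of which 48 had a mean of at least 1 TPM and 3 had at most 3 counts in every replicate. Their median was 2.77 in log2(TPM + 1), beside 3.43 for the 10 members. Maintenance partners were among the higher lists, with 7 of 8 genes at a mean of 1 TPM or more. Pcna, the replication clamp, had 91.0 ± 5.15 TPM (SD, n = 3), and Hells, a remodeller needed for methylation, had 47.7 ± 10.95 TPM (SD, n = 3). Usp7, which stabilises DNMT1 and UHRF1, had 51.0 ± 13.3 TPM (SD, n = 3). Dppa3, whose product displaces UHRF1 from chromatin, was the exception at 0.42, 0.54 and 0.45 TPM from 8, 7 and 6 counts.

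Among de novo and imprint regulators, 9 of 10 genes had a mean of at least 1 TPM, Dnmt3c being the other. Trim28, the corepressor that keeps imprints methylated with Zfp57, had 173 ± 69.9 TPM (SD, n = 3), and Zfp57 21.9 ± 3.76 TPM (SD, n = 3). Prdm14, a repressor of Dnmt3b in stem cells, had 4.39, 3.33 and 2.60 TPM. Trdmt1, whose product methylates transfer RNA, had 2.56 ± 0.70 TPM (SD, n = 3).

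Of the genes that work with the oxygenases, 6 of 7 had a mean of at least 1 TPM. Ogt, the glycosyltransferase that binds TET proteins, had 36.3 ± 9.72 TPM (SD, n = 3). Idh1, Idh2 and Idh3a, which make the cosubstrate 2-oxoglutarate, had 33.8 ± 5.61, 29.7 ± 7.50 and 28.5 ± 7.30 TPM (SD, n = 3). Cxxc4, which can lower TET2 protein, had 0 counts in every replicate. Of 15 genes of base excision and deamination, 14 reached a mean of 1 TPM, from Neil1 at 1.63 ± 0.20 to Apex1 at 48.7 ± 6.38 TPM (SD, n = 3). Ung, the uracil glycosylase, had 19.1 ± 6.55 TPM (SD, n = 3), above Mbd4 at 6.08 ± 0.72 and Smug1 at 3.03 ± 0.76 TPM (SD, n = 3).

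The list of methylated CpG readers was a low one, with a median of 2.66 TPM over 7 genes and 6 of them at a mean of 1 TPM or more. Mbd3, a subunit of a repressive remodelling complex, was highest at 12.2 ± 2.54 TPM (SD, n = 3). Its mammalian protein is known to lack selective binding to methylated CpG, unlike the relatives after which the list is named. In methyl donor metabolism, 6 of 7 genes had a mean of at least 1 TPM. Mat2a, which makes S-adenosylmethionine, had 43.9 ± 6.86 TPM (SD, n = 3), and the liver form Mat1a had 0, 2 and 0 counts. By level alone, the pathway gene nearest to Tet1 was Mat2a, nearest to Uhrf1 and Tet2 was Ogt, nearest to Dnmt1 was Mat2b and nearest to Dnmt3b was Prdm14. Their means differed from the member's by -0.04, -0.04, -0.11, 0.00 and 0.03 in log2(TPM + 1) over the 3 replicates, for Tet1, Uhrf1, Tet2, Dnmt1 and Dnmt3b in that order.

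**Figure D4:**
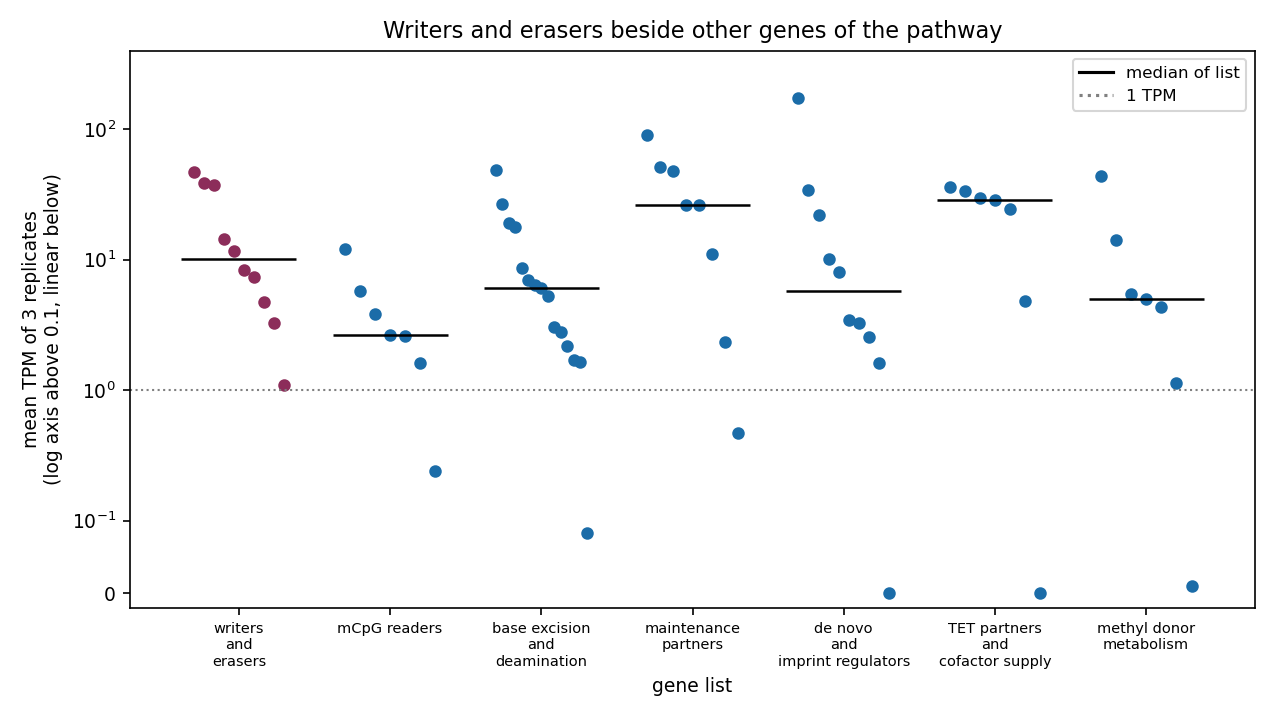
Mean TPM over 3 replicates (log axis above 0.1, linear below) of the 10 writers and erasers and of the 54 other pathway genes in 6 lists, each point a gene and each bar a list's median. The methylated CpG readers have the lowest median of the pathway lists, 2.66 TPM, and TET partners with cofactor supply the highest, 28.5 TPM.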

How the data were processed

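RNA of E14 cells, without its ribosomal part, went into strand-preserving libraries, per the labels' protocols, in 3 replicates. Nothing in the labels says whether they are separate cultures, so the spread may be technical. STAR, RSEM and mm10 are listed in the submitters' processing notes, with no version or role. The annotation release, filters and strand setting are not given in the sources used here. Per the file headers, the authors deposited 1 table per replicate with an expected count for each gene, which is an estimated count without normalization, and with TPM. FPKM values, also deposited by the authors, were left aside.

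Genes were matched by Ensembl ID to GENCODE vM21 (GRCm38), which held 55227 of the 55487 IDs. Transcript IDs of all 10 members matched, and 34074 of 34137 genes with a single transcript had the annotated length within 0.01 nt. Promoters were RefSeq windows. The members and lists were chosen with earlier results of these data known. Named genes were the members, the listed genes, the listed gene nearest in level to each member, and genes that overlap or copy a member. Some listed genes are counted in their lists and not reported here by name. The transcript bounds and the length class were chosen after seeing the data.

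TPM was compared within replicates as log2 ratios without a pseudocount. Variation used edgeR 4.0.16 (R 4.3.3) on counts rounded to whole numbers, with TMM and filterByExpr, and DESeq2 1.42.0 for other size factors. On simulated data of 12339 genes from these 3 replicates, the variability test recovered 5, 35, 49 and 50 of 50 genes changed 2-, 4-, 8- and 16-fold in 1 replicate, with 4 false calls. The changed genes were drawn from those above the median abundance. All counts were simulated with the dispersion trend fitted to these data. Recovery of scarcer genes, and false calls where genes depart from that trend, were not measured. Other steps used Python 3.11.15 with pandas 2.3.3 and matplotlib 3.10.9. A floor of 3 counts equals 0.263, 0.464 and 0.518 CPM in replicates 1, 2 and 3.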

Additional observations from a re-analysis of the deposited data

How the results depend on the processing

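For 11 results, 72 alternatives were run, 6 of them chosen after seeing the data. Counted as unchanged were 48, while 20 moved the value and 4 reversed it. For the ratios and the median level, unchanged meant within the SD over replicates. For the number of genes varying between replicates it meant within a fixed factor. The number of members expressed has no SD, and 7 of 10 was still counted as unchanged. Log2 ratios of counts without length scaling were 2.01 for Dnmt1 over Dnmt3a, 0.89 for Dnmt3a over Dnmt3b, 2.29 for Uhrf1 over Uhrf2, 0.66 for Uhrf1 over Dnmt1, 0.72 for Tet1 over Tet2, 4.43 for Tet2 over Tet3 and -2.22 for the methyltransferase sum over the oxygenase sum. Dnmt3l over Dnmt3a reversed to -0.75 there, where length is left out by construction. With counts per longest transcript the ratios were 2.74 for Dnmt1 over Dnmt3a, 1.66 for Dnmt3l over Dnmt3a, 2.27 for Uhrf1 over Uhrf2, 4.68 for Tet2 over Tet3 and -1.26 for the 2 sums. Dnmt3a over Dnmt3b reversed to -0.28 there, and the cause was not tested. Long transcripts alone, at the lowest value the gene lengths allow, reversed Tet1 over Tet2 to -0.13 and, at the end of the bounds nearest to a reversal, the methyltransferase sum over the oxygenase sum to 0.21. They gave 2.29 for Uhrf1 over Uhrf2 and 1.17 for Uhrf1 over Dnmt1. Tet2 over Tet3 and Dnmt3a over Dnmt3b have no log2 ratio there, since a lower bound is 0, and are not counted among the 72. At that end long Tet2 transcripts had 0 TPM in every replicate, against 1.51, 1.17 and 0.59 for Tet3. Long Dnmt3a transcripts had 0, 0.406 and 0 TPM, against 3.12, 2.69 and 2.08 for Dnmt3b. The bounds thus allow both orders to reverse in every replicate. A pseudocount of 1 lowered Tet2 over Tet3 to 4.26. The median level of the members became 5.93 in log2(CPM + 1) and 4.79 with short genes out of the TPM total. The number of genes varying between replicates ranged from 63 to 93 when a replicate was left out, with fewer samples in each test, and 0 members were called in each. The number of members expressed was 7 of 10 at a mean of at least 5 TPM. It was 9 of 10 if every replicate must reach 1 TPM, Tet3 being the exception, and 9 without replicate 1. The share of all genes at these settings is not given here, so the counts describe the members alone. No paired analysis was possible because the RNA-seq samples are a single group.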
